A study of Mus musculus with 5 samples.

Results

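The RAS GTPases described here are Nras and 8 of its relatives (Hras, Rras, Rras2, Rap1a, Rap1b, Rap2b, Rala and Ralb), taken by gene symbol from an RNA-seq table of 11352 genes. All 9 were listed. RNA came from mouse haematopoietic stem and progenitor cells (HSPCs) sorted by flow cytometry for KIT and SCA1 and against lineage markers and CD135. Of the 5 libraries, 3 came from Cux1-low;NrasG12D mice (genotype Cux1-knockdown with NrasG12D) and 2 from Cux1-low mice (Cux1-knockdown alone). Both groups thus carried the Cux1 knockdown, and both received pI:C, which induces interferon, and doxycycline over 4 weeks. The comparison asks what NrasG12D adds to HSPCs in which Cux1, a homeodomain transcription factor gene, is already knocked down. Neither age, strain, the driver of each allele nor the number of animals per library is stated, so a p-value reflects only how these libraries scatter, which may be technical.

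RAS GTPases are molecular switches that sit on membranes, are active with GTP bound and are turned off by hydrolysing it. Exchange factors load them with GTP and GTPase-activating proteins (GAPs) speed its hydrolysis. NRAS and HRAS pass growth factor signals to the RAF and PI3K kinases, R-RAS proteins and RAP proteins act on integrin adhesion, and RAL proteins act on the exocyst and vesicle traffic. NrasG12D replaces a glycine of the phosphate-binding loop (P-loop), which leaves NRAS locked in its GTP-bound form, and activating NRAS mutations are known from myeloid leukaemia.

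The P-loop is given here in the reference coding sequence of the 8 relatives of Nras, with the codon that aligns with codon 12 of Nras in capitals, because this glycine is what the family shares at the place that G12D alters. Each line holds 48 bases of the coding strand, 5′ to 3′, read from GENCODE M21 transcripts (mm10).
Hras: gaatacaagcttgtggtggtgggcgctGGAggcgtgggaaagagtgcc
Rras: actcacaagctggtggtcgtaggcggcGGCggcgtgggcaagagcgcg
Rras2: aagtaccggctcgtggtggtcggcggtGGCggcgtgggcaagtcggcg
Rap1a: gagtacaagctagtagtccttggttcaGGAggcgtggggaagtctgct
Rap1b: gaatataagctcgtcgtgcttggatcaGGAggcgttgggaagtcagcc
Rap2b: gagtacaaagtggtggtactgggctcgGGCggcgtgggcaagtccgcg
Rala: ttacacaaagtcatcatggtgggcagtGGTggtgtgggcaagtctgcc
Ralb: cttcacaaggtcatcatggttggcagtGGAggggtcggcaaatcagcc

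All 8 relatives carry a glycine codon there. It is GGA in 4 of them (Hras, Rap1a, Rap1b and Ralb), GGC in 3 (Rras, Rras2 and Rap2b) and GGT in 1 (Rala), so the protein motif is shared while its spelling is not. The count of reads per gene sums both Nras alleles, so the level of Nras mRNA does not tell the mutant allele from the normal one and does not check the genotype. The longest run of identical coding bases between any pair of members was 23 (Nras with Hras, and Rras with Rras2), although Rap1a and Rap1b were identical over 81.7% of their coding bases and Nras and Hras over 76.0%. Counting every stretch of 50 bases in each member's principal transcript, 0 stretches of Hras, Rras, Rras2, Rap1b, Rala and Ralb occurred in an annotated transcript of another gene. Rap1a shared 9.46% of its stretches with other genes, mostly with Gm9392, and Nras shared 0.860%. Rap2b shared 57.3%, because its exons overlap those of B430305J03Rik on the opposite strand over 3702 bases, and without a stated strand setting the reads of that pair cannot be told apart.

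Values are given as normalized CPM, the authors' CPM values, scaled by library sizes that do not equal the column totals. The Cux1-low;NrasG12D libraries held 16489711 to 20019507 reads over the listed genes and the Cux1-low libraries 19822779 and 20262498, so 1 read was worth 0.0481 to 0.0608 normalized CPM. Library 3, which only the Cux1-low;NrasG12D group has, stood apart: on the first principal component (73.8% of the variance) it lay at -4.16, the other libraries of its group at 29.1 and 38.0 and the Cux1-low libraries at -32.8 and -30.1. The sorted cells' own receptor genes were present, with Kit at 477 to 816 normalized CPM in Cux1-low;NrasG12D libraries and 1359 and 1373 in Cux1-low libraries. Flt3, which encodes the CD135 that the sort excluded, was read at 196, 165 and 230 with NrasG12D and 326 and 388 in Cux1-low libraries. Summed markers of erythroid cells, megakaryocytes and platelets, and dendritic cells separated the groups, while those of the other cell types read overlapped. The part of such cells in the values below was not tested. All 9 listed of 13 erythroid genes lay higher in every Cux1-low;NrasG12D library, as did 26.5% of all genes. The summed erythroid levels were 5953 to 11907 in Cux1-low;NrasG12D and 4759 to 5295 normalized CPM in Cux1-low libraries. The globin genes Hba-a1, Hba-a2, Hbb-bt and Hbb-bs are not in the list of genes. The 8 listed of 11 B cell genes summed to 60.5 to 551 in Cux1-low;NrasG12D and 58.1 to 79.4 in Cux1-low libraries, with library 3 lowest in its group. The 10 listed of 11 megakaryocyte and platelet genes summed to 653 to 1304 in Cux1-low;NrasG12D and 1455 to 1490 in Cux1-low libraries, the 5 listed of 6 dendritic cell genes to 225 to 368 in Cux1-low;NrasG12D and 605 to 940 in Cux1-low libraries, the 8 listed of 12 neutrophil and monocyte genes to 8476 to 19908 in Cux1-low;NrasG12D and 7827 to 10974 in Cux1-low libraries, and the 7 mast cell, basophil and eosinophil genes to 930 to 1234 in Cux1-low;NrasG12D and 1186 to 1415 in Cux1-low libraries. Of 7 T cell genes Lck alone was listed. The eosinophil genes Epx and Prg2 were lower with NrasG12D at a limma adjusted p of 0.0430 each, although the sums of their list overlapped. Epx measured 24.2, 34.0 and 30.7 normalized CPM in Cux1-low;NrasG12D libraries and 61.5 and 67.8 in Cux1-low libraries. Prg2 measured 58.7, 90.4 and 68.0 against 156 and 193. The dendritic cell gene H2-Aa was also lower (limma adjusted p = 0.0478). At an adjusted p under 0.05, 0.872% of all genes were lower. Of 8 surface marker genes of stem and progenitor cells, Kit, Ly6a (SCA1), Flt3, Cd34, Procr and Ptprc lay lower and Cd48 higher in every Cux1-low;NrasG12D library, and Slamf1 overlapped. Over all genes, 27% lay lower and 26.5% higher in every such library. In bulk RNA, fewer cells of a type and less RNA per cell cannot be told apart.

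No member passed the threshold between the groups (limma, Benjamini-Hochberg adjusted p under 0.05 over 11352 genes), where 1.13% of all genes did. At an unadjusted p under 0.05, 3 of 9 members (Rras, Hras and Rap1b) lay under it, against 31.4% of all genes. The groups did not overlap in 4 members, Hras and Rap2b being higher and Rras and Rap1b lower in every Cux1-low;NrasG12D library, against 53.5% of all genes without overlap (26.5% higher and 27% lower). These shares are near the background. The median log2 fold change of the members was -0.08, beside -0.003 for all genes, and their median absolute log2 fold change was 0.17, beside 0.27 for all genes. Without library 3, 3 members passed (Hras higher, Rras and Rap1b lower), and in that fit 37.4% of all genes passed. No member passed without Cux1-low;NrasG12D library 1 (0.0264% of all genes passed), without its library 2 (0.194%, 0.0881% higher and 0.106% lower) or without either Cux1-low library (0.0264% each).

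**Figure D1:**
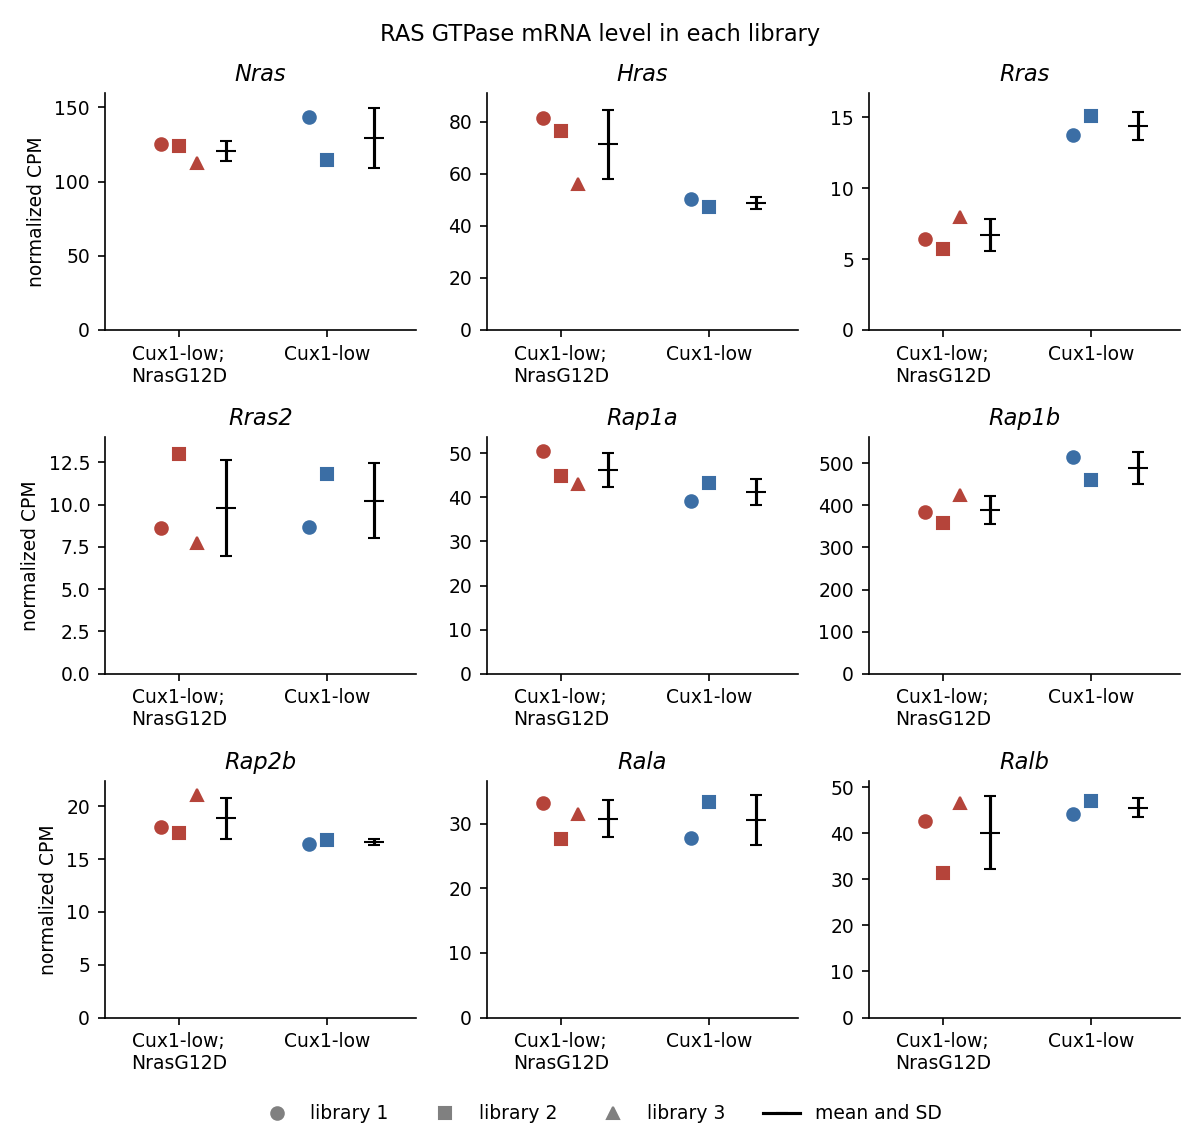
Normalized CPM of each of the 9 RAS GTPases in the 3 Cux1-low;NrasG12D (red) and 2 Cux1-low (blue) libraries, with the mean and SD of each group in black; every axis starts at 0. Rras shows the largest ratio between the groups, Hras the next, and the Nras points of both groups lie among one another.

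Nras, the gene that carries the mutant allele (ENSMUSG00000027852.14, chromosome 3, 103058285 to 103067914, plus strand), did not differ beyond its spread. It measured 126, 124 and 113 normalized CPM across Cux1-low;NrasG12D libraries and 144 and 115 in the Cux1-low libraries. The Cux1-low values enclose those of libraries 1 and 2 of the other group, and the lowest value of all was that of library 3. The log2 fold change was -0.09 ± 0.13 (SE, adjusted p = 0.642 by limma), with a 95% interval of -0.40 to 0.21, which corresponds to a 0.759-fold to 1.16-fold level. It rested on 1854 to 2932 reads per library. Its sign rested on 1 library, since without Cux1-low library 1 the log2 fold change was 0.07.

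Hras (ENSMUSG00000025499.18, chromosome 7, 141189105 to 141194005, minus strand) encodes the member closest to NRAS and signals to the same effectors. It measured 81.3, 76.4 and 56.1 normalized CPM across Cux1-low;NrasG12D libraries, against 50.5 and 47.1 in Cux1-low libraries. Every Cux1-low;NrasG12D library was above both Cux1-low libraries, with library 3 closest to them. The means were 71.3 ± 13.3 with NrasG12D (SD, n = 3) and 48.8 ± 2.42 in Cux1-low libraries (SD, n = 2), a ratio of 1.46, and the log2 fold change was 0.52 ± 0.18 (SE, adjusted p = 0.111 by limma, 95% interval 0.11 to 0.94). Without library 3 it was 0.68 (adjusted p = 0.00555 by limma, and 0.00159 to 0.422 among the 16 alternatives). The authors' deposited table gives Hras a log2 fold change of 0.55 and an adjusted p of 0.0472.

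Rras (ENSMUSG00000038387.9, chromosome 7, 45017961 to 45021647, plus strand), which encodes R-RAS, a GTPase best known for promoting integrin adhesion and the quiescence of vessels, had the largest log2 fold change of the 9 members. It measured 6.41, 5.71 and 7.96 normalized CPM across Cux1-low;NrasG12D libraries, against 13.7 and 15.1 in Cux1-low libraries. Library 3 lay with libraries 1 and 2 here, and the gap between the groups was wider than the spread within either. These levels rested on 100 to 131 reads per Cux1-low;NrasG12D library and on 280 and 314 reads per Cux1-low library. The means of 6.69 ± 1.15 with NrasG12D (SD, n = 3) and 14.4 ± 0.982 in Cux1-low libraries (SD, n = 2) gave a ratio of 0.464. The log2 fold change was -1.01 ± 0.20 (SE, adjusted p = 0.0579 by limma, 95% interval -1.48 to -0.54), just outside the threshold. It passed without library 3 (log2 fold change -1.13, adjusted p = 0.00492 by limma, and 0.00044 to 0.400 among the 16 alternatives). In the authors' deposited table Rras has a log2 fold change of -1.11 and an adjusted p of 0.00171. That table calls 1 member higher and 1 lower, Hras and Rras, where it calls 16.1% of all genes (6.97% higher and 9.14% lower).

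Rras2 (ENSMUSG00000055723.6, chromosome 7, 114046782 to 114117781, minus strand), which encodes TC21, a close relative of R-RAS that can also activate PI3K, was low and scattered. It measured 8.62, 13.0 and 7.72 normalized CPM across Cux1-low;NrasG12D libraries and 8.68 and 11.8 in Cux1-low libraries. The groups overlapped, library 2 being the highest within each group, and the log2 fold change of -0.08 ± 0.26 (SE, adjusted p = 0.856 by limma) had a 95% interval of -0.70 to 0.54.

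Per kb of exon Rap1b was the most abundant member, and its partner Rap1a was far lower. RAP1 proteins drive the switch of integrins to their adhesive form and counter RAS at the membrane in some cells. Rap1b (ENSMUSG00000052681.8, chromosome 10, 117813871 to 117846035, minus strand) measured 385, 357 and 424 normalized CPM across Cux1-low;NrasG12D libraries, against 515 and 461 in Cux1-low libraries. All 3 Cux1-low;NrasG12D libraries lay below both Cux1-low libraries, with library 3 nearest to them. The log2 fold change was -0.33 ± 0.12 (SE, adjusted p = 0.121 by limma, 95% interval -0.60 to -0.05), and -0.39 without library 3 (adjusted p = 0.0228 by limma, and 0.0198 to 0.515 among the 16 alternatives). With 6265 to 10506 reads per library, Rap1b lay at the 97.8th percentile of all genes by mean log2 level. The authors' deposited table makes no call for Rap1b (adjusted p of 0.1201).

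Rap1a (ENSMUSG00000068798.10, chromosome 3, 105727267 to 105801336, minus strand) measured 50.5, 44.9 and 43.1 normalized CPM across Cux1-low;NrasG12D libraries and 39.1 and 43.2 in Cux1-low libraries. The groups overlapped by a small margin, library 3 lying just under the higher Cux1-low library. Its log2 fold change was 0.16 ± 0.13 (SE, adjusted p = 0.423 by limma, 95% interval -0.15 to 0.47). Rap2b (ENSMUSG00000036894.3, chromosome 3, 61361638 to 61368430, plus strand), a RAP2 protein that acts on the actin cytoskeleton, was at 18.002, 17.5 and 21.1 in Cux1-low;NrasG12D libraries and 16.4 and 16.8 in Cux1-low libraries. The groups did not overlap, yet the log2 fold change was only 0.17 ± 0.16 (SE, adjusted p = 0.485 by limma), and its reads cannot be told apart from those of the opposite gene.

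The RAL genes did not differ beyond their spread. RALA and RALB bind the exocyst and link RAS to secretion and cell survival. Rala (ENSMUSG00000008859.8, chromosome 13, 17880571 to 17944239, minus strand) measured 33.2, 27.7 and 31.5 normalized CPM across Cux1-low;NrasG12D libraries and 27.8 and 33.3 in Cux1-low libraries, a log2 fold change of 0.01 ± 0.15 (SE, adjusted p = 0.963 by limma, 95% interval -0.35 to 0.37). The groups covered nearly the same range. Ralb (ENSMUSG00000004451.14, chromosome 1, 119470305 to 119504794, minus strand) was at 42.6, 31.3 and 46.5 in Cux1-low;NrasG12D libraries and 44.1 and 46.9 in Cux1-low libraries, a log2 fold change of -0.19 ± 0.18 (SE, adjusted p = 0.488 by limma, 95% interval -0.63 to 0.24). Library 2 of the NrasG12D group was low, and without it the log2 fold change of Ralb was -0.03.

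**Figure D2:**
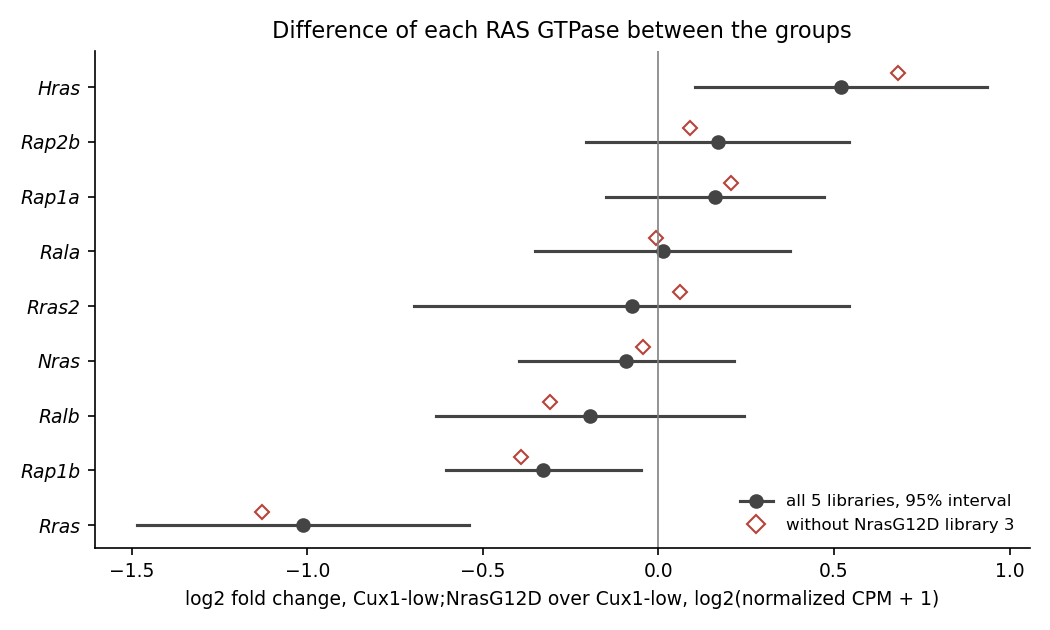
Log2 fold change of Cux1-low;NrasG12D over Cux1-low for each RAS GTPase on the log2(normalized CPM + 1) scale, with 95% intervals from limma over 5 libraries (black) and the value without library 3 (open diamonds). The intervals of Rras, Rap1b and Hras leave out 0 before adjustment over all genes, and the other 6 include it.

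Levels were compared between genes per kilobase of annotated exon. Rap1b led in both groups, at 135 ± 11.7 normalized CPM per kb in Cux1-low;NrasG12D libraries (SD, n = 3) and 169 ± 13.2 in Cux1-low libraries (SD, n = 2). It made up 60.0% of the summed level per kb of the 9 members in Cux1-low;NrasG12D libraries and 65.0% in Cux1-low libraries. Nras came next in both groups, at 22.6 ± 1.31 normalized CPM per kb with NrasG12D and 24.3 ± 3.83 in Cux1-low libraries. So the most abundant transcript of the family was that of a RAP gene, and Nras led the classical pair.

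In Cux1-low;NrasG12D libraries Nras was followed by Hras (19.1 ± 3.57), Rap1a (17.7 ± 1.47), Rala (10.6 ± 0.972), Ralb (8.14 ± 1.597), Rras (5.97 ± 1.028), Rap2b (2.77 ± 0.287) and Rras2 (2.75 ± 0.797 normalized CPM per kb). The ranges of Nras and Hras, of Hras and Rap1a, of Ralb and Rras, and of Rap2b and Rras2 overlapped there. In Cux1-low libraries the order after Nras was Rap1a (15.8 ± 1.11), Hras (13.1 ± 0.647), Rras (12.9 ± 0.876), Rala (10.5 ± 1.34), Ralb (9.23 ± 0.410), Rras2 (2.88 ± 0.620) and Rap2b (2.45 ± 0.039 normalized CPM per kb). Hras and Rras overlapped, as did Rras2 and Rap2b. The level of Rap2b per kb is uncertain, since B430305J03Rik overlaps its exons and strand use in counting is not stated. Rras thus stood at rank 7 in Cux1-low;NrasG12D libraries and rank 5 in Cux1-low libraries, and Hras at rank 3 and rank 4. With the principal transcript's length in place of all exons, Rap1b and Nras kept the first ranks, Ralb moved to rank 5 in Cux1-low;NrasG12D libraries and rank 3 in Cux1-low libraries, and Rras was at rank 7 and rank 6.

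**Figure D3:**
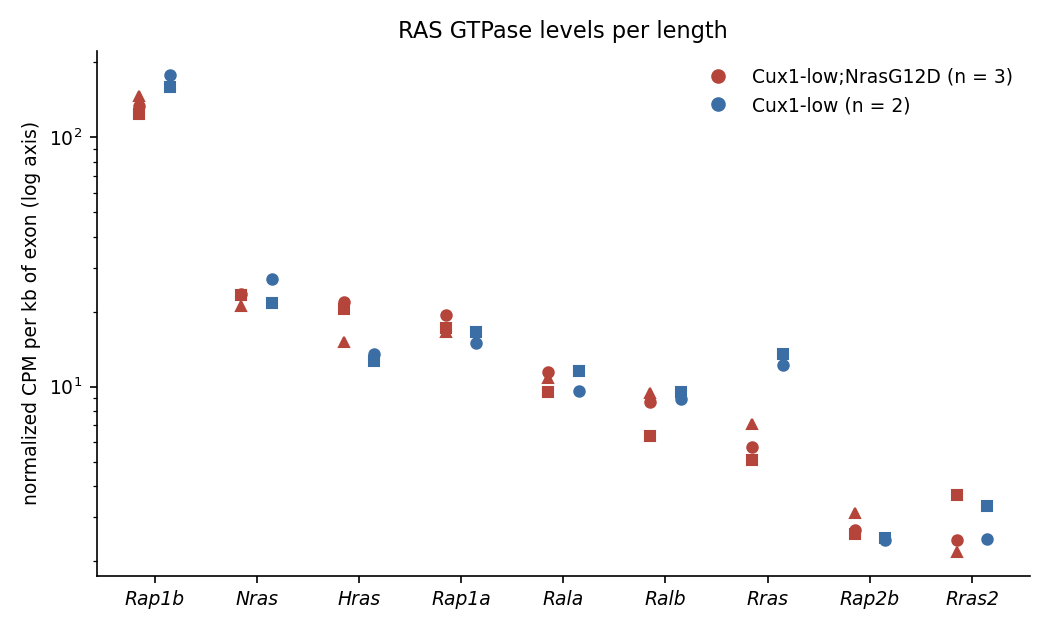
Normalized CPM per kb of annotated exon (log axis) of each RAS GTPase in the 3 Cux1-low;NrasG12D (red) and 2 Cux1-low (blue) libraries, with circles, squares and triangles for libraries 1, 2 and 3. Rap1b lies far above the rest in every library, and Rras lies lower and Hras higher in the Cux1-low;NrasG12D libraries.

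The balance within 4 pairs of relatives was compared as the ratio of their levels per kb in each library. An exact permutation test of 3 against 2 libraries cannot go below p = 0.2 (2-sided), so none of these ratios can pass a threshold. The Nras to Hras ratio was 1.08, 1.13 and 1.41 in Cux1-low;NrasG12D libraries and 1.99 and 1.71 in Cux1-low libraries. The ratio was lower in each Cux1-low;NrasG12D library (exact permutation p = 0.2, 0.267 adjusted over 4 pairs). Nras exceeded Hras in every library with all exons as the length, but with the principal transcript Hras was above Nras in library 1 with NrasG12D (28.7 and 28.1 normalized CPM per kb). The Rras to Rras2 ratio was 2.36, 1.39 and 3.27 in Cux1-low;NrasG12D libraries against 5.02 and 4.06 in Cux1-low libraries (exact permutation p = 0.2, 0.267 adjusted). The Rap1a to Rap1b ratio was 0.145, 0.139 and 0.112 in Cux1-low;NrasG12D libraries and 0.0840 and 0.104 in Cux1-low libraries, so Rap1b exceeded Rap1a in every library and by less in each Cux1-low;NrasG12D library (exact permutation p = 0.2, 0.267 adjusted). The Rala to Ralb ratio was 1.32, 1.502 and 1.15 in Cux1-low;NrasG12D libraries and 1.07 and 1.21 in Cux1-low libraries, and the groups overlapped (exact permutation p = 0.4, 0.4 adjusted). Which of this pair is higher depended on the length used: with the principal transcript Rala averaged 11.4 normalized CPM per kb and Ralb 17.5 with NrasG12D, and Rala 11.4 and Ralb 19.9 in Cux1-low libraries. Ratios within a library do not depend on how libraries were scaled, and another length shifts a pair by the same factor in every library.

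**Figure D4:**
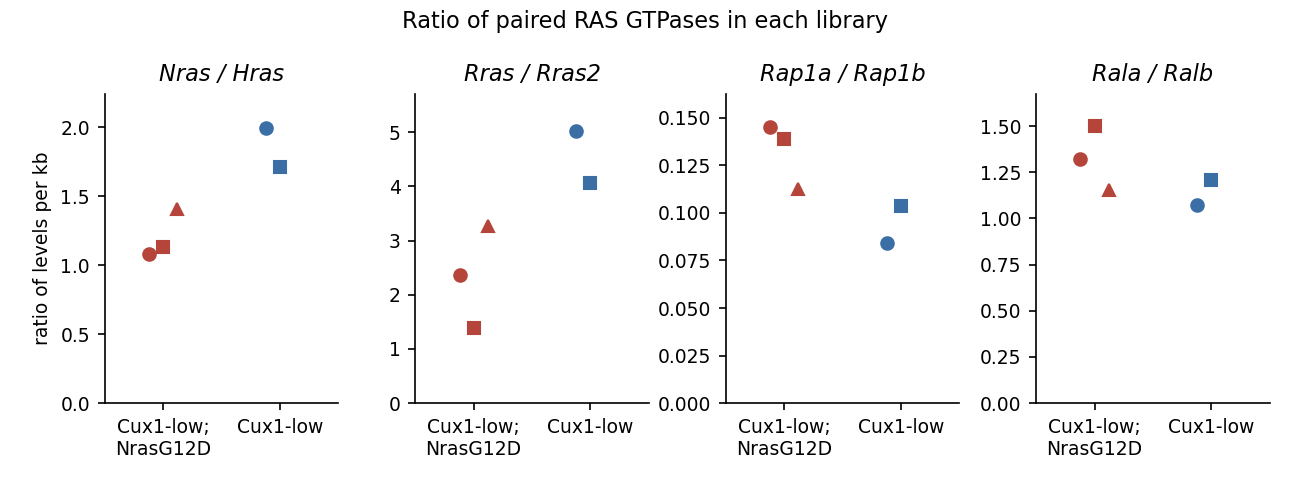
Ratio of levels per kb within 4 pairs of RAS GTPases in each Cux1-low;NrasG12D (red) and Cux1-low (blue) library, with circles, squares and triangles for libraries 1, 2 and 3; axes start at 0. The first 3 pairs show no overlap between the groups and Rala to Ralb does.

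Genes that load, switch off, modify or obey these GTPases, and other RAS subfamily GTPases, were read from 8 lists. The lists held 123 genes, of which 97 were listed. None of the 97 passed the threshold over all genes by limma, so all genes named from these lists are given by their values. Of 18 genes for lipid processing and membrane delivery, all listed, 10 had a positive sign (median log2 fold change 0.01), and 3 had an unadjusted p under 0.05, a smaller share than the 31.4% of all genes. Fdps, whose enzyme makes the farnesyl precursor of the RAS lipid anchor, was at 42.2, 34.4 and 30.6 in Cux1-low;NrasG12D libraries and 18.1 and 19.7 in Cux1-low libraries (log2 fold change 0.87, adjusted p = 0.0581 by limma). Abhd17b, a depalmitoylase for NRAS, was at 56.8, 46.0 and 61.2 in Cux1-low;NrasG12D libraries and 75.4 and 72.9 in Cux1-low libraries (log2 fold change -0.44, adjusted p = 0.108 by limma). Both genes separated the groups, in opposite directions. The farnesyltransferase subunits Fnta and Fntb had log2 fold changes of 0.05 and 0.36 and were chosen after their values were seen.

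Of 14 listed exchange factors and GAPs of RAP, 10 had a negative sign and the median log2 fold change was -0.44, beside -0.003 for all genes. None passed, and 5 had an unadjusted p under 0.05, a share near the 31.4% of all genes. The groups did not overlap in 8 lower genes and 1 higher, where 27% of all genes lay lower and 26.5% higher. This list was chosen with earlier results of these data known. Sipa1l1, a GAP for RAP, measured 53.6, 65.0 and 114 normalized CPM across Cux1-low;NrasG12D libraries, against 183 and 187 in Cux1-low libraries (log2 fold change -1.32, adjusted p = 0.0680 by limma). Rapgef2, an exchange factor for RAP, was at 10.6, 13.8 and 17.7 in Cux1-low;NrasG12D libraries and 31.5 and 26.2 in Cux1-low libraries (log2 fold change -1.01, adjusted p = 0.0695 by limma). Library 3 was the highest of its group for both, nearest to the Cux1-low level. Of 11 listed RAP effectors and integrin activators, 9 had a negative sign (median -0.26). Rassf5, also called RAPL, which carries the RAP1 signal to integrins, was at 150, 142 and 203 in Cux1-low;NrasG12D libraries and 277 and 273 in Cux1-low libraries (log2 fold change -0.75, adjusted p = 0.0658 by limma), and the adaptor gene Skap2 at 135, 101 and 166 in Cux1-low;NrasG12D libraries and 182 and 188 in Cux1-low libraries (log2 fold change -0.49, adjusted p = 0.148 by limma). Without library 3, 6 RAP regulators fell and 0 rose, and 5 RAP effectors fell and 1 rose, where 19.4% of all genes fell and 18% rose.

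RAL regulators had 7 of 8 listed genes with a negative sign and a median log2 fold change of -0.36. Ralgds, an exchange factor that RAS itself recruits to activate RAL, measured 29.1, 20.9 and 36.8 normalized CPM across Cux1-low;NrasG12D libraries, against 45.3 and 54.2 in Cux1-low libraries (log2 fold change -0.79, adjusted p = 0.0915 by limma). Ralgps1, another exchange factor for RAL, was at 4.26, 4.57 and 11.2 in Cux1-low;NrasG12D libraries and 16.0 and 14.5 in Cux1-low libraries (log2 fold change -1.19, adjusted p = 0.0984 by limma). Both exchange factor genes lay lower in every Cux1-low;NrasG12D library, while Rala and Ralb themselves did not differ beyond their spread. Of 13 RAL effector and exocyst genes, 7 had a positive sign (median 0.01). Ybx3, a Y-box protein gene, was at 993, 1017 and 805 in Cux1-low;NrasG12D libraries and 583 and 595 in Cux1-low libraries (log2 fold change 0.66, adjusted p = 0.0590 by limma), and the exocyst subunit gene Exoc2, whose product binds RAL, at 124, 125 and 150 in Cux1-low;NrasG12D libraries and 191 and 168 in Cux1-low libraries (log2 fold change -0.43, adjusted p = 0.0897 by limma). Without library 3, 4 RAL regulators fell and 0 rose, and 3 RAL effector and exocyst genes fell and 1 rose. In that fit 19.4% of all genes fell and 18% rose.

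Of 9 listed RAS effectors outside the RAF and PI3K kinases, 7 had a negative sign (median log2 fold change -0.33). Beside Rassf5, Rassf2, a RAS association domain gene known as a tumour suppressor, was at 69.7, 62.5 and 102 in Cux1-low;NrasG12D libraries and 128 and 128 in Cux1-low libraries (log2 fold change -0.74, adjusted p = 0.0838 by limma). Of 13 listed exchange factors and GAPs of RAS, 9 had a negative sign (median -0.10). Rasgrp2, whose product mainly loads RAP1 in blood cells, was at 138, 125 and 118 in Cux1-low;NrasG12D libraries and 71.5 and 86.4 in Cux1-low libraries (log2 fold change 0.68, adjusted p = 0.0549 by limma), and Rasa1, a GAP for RAS, at 72.5, 75.1 and 100 in Cux1-low;NrasG12D libraries and 104 and 102 in Cux1-low libraries (log2 fold change -0.33, adjusted p = 0.203 by limma). Among the exchange factors for RAP, Rasgrp2 thus lay higher and Rapgef2 lower with NrasG12D, and neither passed the threshold. Of all genes, 49.7% had a positive sign. Without library 3, 3 RAS effectors fell, and 2 exchange factors and GAPs of RAS rose and 2 fell. Among all genes 18% rose and 19.4% fell in that fit.

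The other RAS subfamily GTPases had 12 of 24 listed genes (5 positive, median log2 fold change -0.11). Gem, which encodes a GTPase that inhibits voltage-gated calcium channels, measured 95.9, 104 and 184 normalized CPM across Cux1-low;NrasG12D libraries, against 46.8 and 50.9 in Cux1-low libraries (log2 fold change 1.31, adjusted p = 0.0613 by limma). Here library 3 was the farthest from the Cux1-low level. Mras, a partner of SHOC2 in activating RAF, was at 2.26, 1.997 and 2.19 in Cux1-low;NrasG12D libraries and 4.17 and 4.91 in Cux1-low libraries (log2 fold change -0.81, adjusted p = 0.0806 by limma). Its direction was that of Rras, at a lower level. Without library 3, 3 of these 12 genes rose and 1 fell, and 4 lipid processing genes rose and 2 fell. The shares of all genes in that fit were 18% rising and 19.4% falling.

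**Figure D5:**
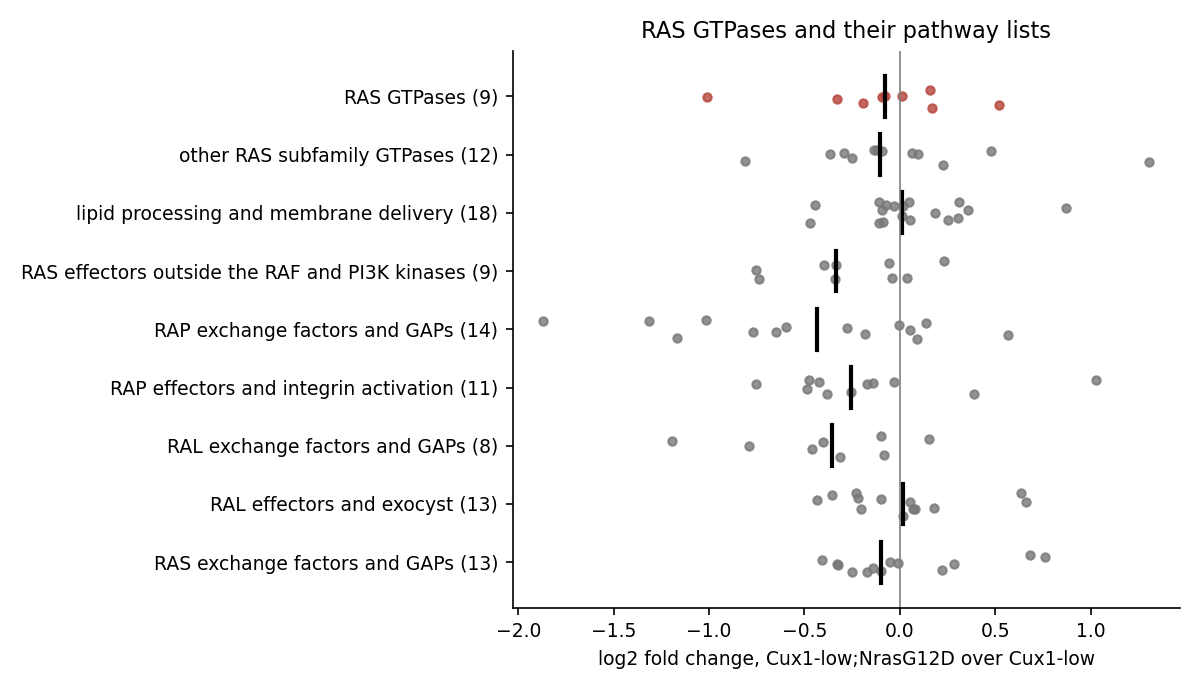
Log2 fold change of Cux1-low;NrasG12D over Cux1-low for the RAS GTPases (red) and the listed genes of 8 related lists (grey), 1 point per gene, with the number listed in brackets and the median of each list as a black bar; vertical scatter has no meaning. The medians of 6 of the 8 related lists lie below 0, and 0 of the genes shown passed the threshold.

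Listed genes near Nras on chromosome 3 were read because the mutant allele lies among them. Before Nras, Sike1 had a log2 fold change of 0.003 (adjusted p = 0.991 by limma). The tetraspanin gene Tspan2 was at 18.6, 16.5 and 22.1 in Cux1-low;NrasG12D libraries and 49.9 and 34.2 in Cux1-low libraries (log2 fold change -1.09, adjusted p = 0.0570 by limma). After Nras, Dennd2c had a log2 fold change of -0.19 (adjusted p = 0.532 by limma) and Trim33 of 0.13 (adjusted p = 0.614 by limma). Bcas2, a splicing factor gene, was at 203, 203 and 161 in Cux1-low;NrasG12D libraries and 129 and 141 in Cux1-low libraries (log2 fold change 0.47, adjusted p = 0.0876 by limma). None of these 5 genes passed by limma. Tspan2 lay lower and Bcas2 higher in every Cux1-low;NrasG12D library, and the other 3 overlapped. The groups did not overlap in 53.5% of all genes, so such a separation is common in these libraries.

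Likeness was read among 8441 genes with a mean log2 level of at least 4 and a descriptive symbol. Genes with Gm, Rik, pseudogene or accession-like names were left out. Those most like Nras over the 5 libraries were Snap23, Aebp2, Srbd1, Lrrc28 and Dcp1b. Their root mean square differences from Nras, between centred log2 values, were 0.03 to 0.05. Snap23 measured 79.8, 80.2 and 71.6 normalized CPM across Cux1-low;NrasG12D libraries and 97.2 and 75.2 in Cux1-low libraries. Like Nras, it was highest in Cux1-low library 1 and lowest in library 3. Those most like Rras were Paqr7, Plxnb2, Prkch, Kremen1 and Armcx1, with differences of 0.05 to 0.07. Paqr7, a membrane progestin receptor gene, was at 38.3, 35.6 and 44.4 in Cux1-low;NrasG12D libraries and 73.7 and 79.6 in Cux1-low libraries, a higher level in the same order of groups, which its choice as a match to Rras fixes. Likeness over 5 libraries is given as a description.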

How the data were processed

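The authors' deposited table holds 1 value per gene and library headed CPM, per the file headers. Per the submitters' processing notes, the tools were edgeR, HTSeq and TopHat (no version or role is stated) and the builds mm10 and hg19. The deposited signal values (normalized CPM) sum to 971746 to 1026780 per library, so they are not plain CPM. The table also holds the authors' log2 fold change, mean log2 CPM, likelihood ratio score, p-value and adjusted p-value, per the file headers. Every listed gene exceeds 1 in at least 3 libraries, so genes above 1 in the Cux1-low libraries only are not in it.

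All values were whole multiples of a smallest step (tolerance 0.001 steps), read as 1 read, but a count test was not run on them. limma 3.58.1 (R 4.3.3) with trended variance was run on log2(normalized CPM + 1), with no block and 2-sided, for 3 Cux1-low;NrasG12D and 2 Cux1-low libraries. Adjustment was by Benjamini-Hochberg and the threshold 0.05. Fold changes on this scale understate those of low genes. A minimum of 1 in at least 2 libraries removed 0 genes. The fit was also run on simulated data in which all libraries of a group scattered alike. Those data hold no library set apart as library 3 is, so that run does not bear on its effect. Ratios used exact permutation tests (scipy 1.17.1, Python 3.11.15).

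The members, lists and tests were chosen with earlier results of these data known. From each list, genes past the threshold or else the 2 with the smallest p were named, and the 3 nearest listed genes on each side of Nras (1 of which is not reported here) and the 5 genes most like Nras and Rras. Coordinates, exon lengths and sequences are from GENCODE M21 (mm10). Strand use in counting is not stated.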

Additional observations from a re-analysis of the deposited data

How the results depend on the processing

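With pseudocounts of 0.1, 0.5 and 4, a filter of 5 normalized CPM, no filter, 3 other scalings, robust or untrended variance, a replicate block and each library left out, the number of members called was 0 in 13 of 16 alternatives. It was 1 with a pseudocount of 4 (Rras, limma adjusted p = 0.0470), 3 with the block and 0 to 3 with a library left out, 3 being without Cux1-low;NrasG12D library 3. Over all genes, 29 were called higher and 99 lower. These counts became 57 and 257 with a pseudocount of 4, 63 and 165 with quantile normalization, 31 and 182 with rescaling to equal column sums, and 63 lower with a pseudocount of 0.1. Left-out libraries gave 3 to 2043 higher and 0 to 2200 lower. With the replicate block, 1892 were higher and 2271 lower; that fit gives library 3 a term of its own, so it does not enter the difference. Deviations of same-numbered libraries from their group means had correlations of -0.192 and -0.0035. The deviations of the 2 Cux1-low libraries mirror each other, so these correlations cannot decide whether the numbers pair libraries.

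The sign turned for Nras, Rala, Rras2, Sike1, Trim33 and Dennd2c, none past the threshold. With libraries left out, Nras ranged from -0.25 to 0.069, Rala from -0.11 to 0.14, Rras2 from -0.28 to 0.12, Sike1 from -0.041 to 0.081 and Trim33 from -0.033 to 0.29 (log2). Rala was -0.051 and Sike1 -0.060 after rescaling to equal column sums, Rras2 0.14 and Dennd2c 0.044 with quantile normalization, and Rras2 0.061, Rala -0.0056 and Sike1 -0.032 with the block. The cause was not tested. Hras, Rras, Rap1a, Rap1b, Rap2b and Ralb kept their sign in all 16 alternatives. Among the members, Rras (100 to 314 reads) and Rras2 (127 to 245 reads) rest on the fewest reads.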

Other observations

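Rapgef4, which encodes a cAMP-activated exchange factor for RAP, was chosen after its values were seen. Its levels were 1.38, 1.997 and 17.1 normalized CPM for Cux1-low;NrasG12D libraries, against 18.6 and 16.5 for Cux1-low libraries (log2 fold change -1.87, adjusted p = 0.165 by limma). Library 3 thus lay between the Cux1-low libraries, while libraries 1 and 2 were near the lower limit of the table. In Hras, Rras and Rap1b library 3 was the closest of its group to the Cux1-low libraries, and in Gem it was the farthest from them.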
